A study of Mus musculus with 6 samples.

Results

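Solute carriers are membrane proteins that move nutrients, ions, metals and drugs across the plasma membrane and the membranes of mitochondria and vesicles. Their transcripts were measured in mouse lung. The genes were those whose array symbol begins with Slc followed by a digit, or with Slco, less 5 named genes (Slc26a4, Slc26a9, Slc12a2, Slc7a1 and Slc7a2) that were set aside by the selection rule. Genes were then selected on their signal: a gene was read by the probe set of highest mean signal across the 6 arrays, and it was kept where 2 or more arrays exceeded 7.10, the median log2 value of the whole table. Of 358 solute carrier genes with a probe set, 222 were kept, among 11860 genes kept on the same terms and 18193 genes in all. Of the 136 left out, 131 were above the median in no array and 5 in 1 array. Of the 222, 208 were above it in all 6 arrays and 0 were kept through 1 genotype alone. Just inside the limit, with 2 arrays above it, were Slc25a34, Slc27a2, Slc2a9, Slc38a3 and Slco1a1, and just outside, with 1 array, were Slc27a5, Slc39a2, Slc43a1, Slc45a2 and Slco1a4. The levels that chose the genes are given as a description. The comparisons below are between genotypes, which the selection on signal did not use. The gene list itself was chosen with earlier results of these data known.

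Adult BALB/c mice of 3 genotypes were studied, with 2 arrays per genotype and the whole-lung RNA of 4 mice pooled on each array. IL4R KO + SMP8-IL4R mice lacked both copies of the endogenous IL-4 receptor gene (IL4R -/-) and carried 1 copy (+/-) of a receptor transgene driven by the SMP8 promoter, which the study describes as specific for smooth muscle. IL4R KO mice were IL4R -/- without the transgene, and WT mice had the intact receptor gene. Mice of all 3 genotypes received 2 to 3 µg of interleukin-13 into the trachea once a day for 7 days and were sampled 24 hours after the last dose, so that no group shows lung without the cytokine. Interleukin-13 acts through a receptor that contains the IL-4 receptor alpha chain, and IL4R KO lungs are therefore lungs exposed to a cytokine whose receptor chain was deleted.

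Within the solute carriers, cotransporters such as Slc5a1 use the sodium gradient to draw sugars into the cell, exchangers such as Slc7a8 trade one amino acid for another, and Slc25 proteins carry metabolites across the inner mitochondrial membrane. In lung, Slc34a2 takes up phosphate in alveolar type 2 cells, Slc15a2 takes up small peptides in airway epithelium, and Slco2a1 clears prostaglandins. Slc34a2 read 13.86 and 13.88 (log2) in IL4R KO + SMP8-IL4R, 13.88 and 13.90 in IL4R KO, and 13.86 and 13.89 in WT, so the 6 arrays were nearly alike for this transcript. This signal lies near the top of the table, where the highest value was 14.76, and saturation was not tested. Of 4 alveolar type 2 markers 0 passed in any comparison, and they did not move together: Sftpb and Abca3 were lower in both WT pools than in all others, Sftpa1 was higher there, and Sftpc was at 14.73 to 14.76 in every array.

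The promoters of the 4 solute carriers whose level differed from WT by over 2-fold are shown because these genes moved together and carry the largest differences. Each is the 250 bases before the transcript start in RefSeq (GRCm38.p6), 5′ to 3′ on the strand of the gene, in lower case, with GGGCGG read on either strand in capitals.
Slc6a20a: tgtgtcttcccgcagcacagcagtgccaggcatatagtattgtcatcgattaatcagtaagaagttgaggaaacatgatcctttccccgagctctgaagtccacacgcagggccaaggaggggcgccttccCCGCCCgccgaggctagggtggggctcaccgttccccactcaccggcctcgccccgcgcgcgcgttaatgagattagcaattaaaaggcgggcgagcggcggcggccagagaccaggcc
Slc5a1: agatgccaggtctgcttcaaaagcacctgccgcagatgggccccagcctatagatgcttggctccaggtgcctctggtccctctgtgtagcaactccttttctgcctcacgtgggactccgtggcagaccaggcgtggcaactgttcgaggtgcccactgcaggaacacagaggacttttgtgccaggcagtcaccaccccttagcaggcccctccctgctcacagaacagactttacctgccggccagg
Slco4c1: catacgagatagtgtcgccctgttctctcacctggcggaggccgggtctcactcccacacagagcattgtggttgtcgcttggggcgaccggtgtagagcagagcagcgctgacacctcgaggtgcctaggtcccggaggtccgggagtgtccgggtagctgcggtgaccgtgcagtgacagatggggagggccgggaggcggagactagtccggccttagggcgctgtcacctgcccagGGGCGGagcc
Slc7a8: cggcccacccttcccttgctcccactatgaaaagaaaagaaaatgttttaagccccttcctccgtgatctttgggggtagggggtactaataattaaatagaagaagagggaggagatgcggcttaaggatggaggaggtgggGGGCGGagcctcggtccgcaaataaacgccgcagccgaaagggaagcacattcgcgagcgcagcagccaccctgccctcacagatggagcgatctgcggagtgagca
They lie at chr9:123678833-123679082 on the minus strand for Slc6a20a, chr5:33103969-33104218 on the plus strand for Slc5a1, chr1:96872172-96872421 on the minus strand for Slco4c1 and chr14:54781887-54782136 on the minus strand for Slc7a8. The G+C content was 61.2% in Slc6a20a, 60.0% in Slc5a1, 66.4% in Slco4c1 and 55.6% in Slc7a8, against a median of 52.4% over all promoters of this table. CpG pairs numbered 21, 6, 19 and 14 in that order of genes, against a median of 6. Both strands were searched for 5 short motifs. GGGCGG, the GC box, was found in Slc6a20a, Slco4c1 and Slc7a8 and occurs in 32.7% of the 32851 promoters of the table. TTC and GAA with 4 bases of any kind between them, the form bound by STAT6 (5.85% of promoters), the same with 3 bases between, the form bound by other STAT proteins (7.02%), TATAAA (12.4%) and CCAAT (33.8%) had no match in these 4 windows. The motifs do not overlap each other in these windows, and a match in letters is a description of the sequence alone.

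The arrays were alike in overall level, with medians between 7.08 and 7.11, but several stood apart in liver transcripts or in sex-linked transcripts. Alb, which encodes serum albumin, reached 12.3 (log2) in pool 1 of IL4R KO and 11.8 in pool 2 of WT, while the other 4 arrays lay between 5.68 and 5.93. Transcripts of the Y-linked gene Eif2s3y were at 4.27 in IL4R KO pool 2 and at 8.49 or above elsewhere, and Xist was at 7.93 in IL4R KO pool 1 and at 10.1 or above elsewhere. Between the pools of a genotype the difference over the 222 solute carriers had an SD of 0.138 in the transgenic lungs, 0.260 in the IL4R KO lungs and 0.182 in the WT lungs, against 0.169, 0.340 and 0.221 over all genes. Il4ra had values of 9.98 and 9.84 in IL4R KO + SMP8-IL4R, 9.35 and 9.55 in IL4R KO, and 9.64 and 9.81 in WT. Where its probe set lies relative to the deletion and to the transgene is not known here, and it therefore does not check the labels.

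The comparison of IL4R KO with WT asked which solute carriers depended on the receptor in any cell while interleukin-13 was given. Most of the family differed little, and a small set led by a proline transporter, a glucose cotransporter, an organic anion transporter and an amino acid exchanger was lower without the receptor. Of 222 genes, 13 fell and 2 rose in IL4R KO (limma, Benjamini-Hochberg adjusted p under 0.05 over 11860 genes), which is 5.86% and 0.901% of the solute carriers. Over all genes tested, 2.77% fell and 1.92% rose. The median difference was -0.0038 on the log2 scale over the solute carriers and 0.024 over all genes, and 53 of the 222 lay more than 0.25 from 0 in either direction. Without both arrays that held liver transcripts, IL4R KO pool 1 and WT pool 2, 8 solute carriers fell and 6 rose, among them Slc27a2 and Slc38a4, described at the end. With either WT pool left out, 3 fell (Slc6a20a, Slc5a1 and Slco4c1) and 0 rose. Leaving out IL4R KO pool 1 gave 19 lower and 11 higher, leaving out its pool 2 gave 21 lower and 6 higher, and leaving out either transgenic pool gave 7 lower and 0 higher. The share over all genes is not given for these fits, so their counts do not set the solute carriers apart from other genes. In bulk lung RNA, fewer cells of a type and less RNA per cell cannot be told apart.

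Slc6a20a, which carries proline and related imino acids with sodium and chloride, read 7.16 and 7.43 (log2) in the IL4R KO pools, against 10.19 and 10.34 in the WT pools. The IL4R KO + SMP8-IL4R pools were at 7.40 and 7.37, within the range of IL4R KO. Both knockout genotypes were thus clearly apart from WT in every pool. Slc6a20a was 7.86-fold lower in IL4R KO than in WT (log2 difference -2.98, SE 0.11, limma adjusted p = 0.00019). It was 7.37-fold lower in IL4R KO + SMP8-IL4R than in WT (log2 difference -2.88, SE 0.11, adjusted p = 0.00021).

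Slc5a1, the sodium-glucose cotransporter of intestine and kidney, had values of 7.25 and 7.10 in IL4R KO and 9.49 and 9.56 in WT, and of 7.26 and 6.93 in IL4R KO + SMP8-IL4R. No pool of either knockout genotype came near the WT pools. It was 5.12-fold lower in IL4R KO than in WT (log2 difference -2.36, SE 0.12, limma adjusted p = 0.00074) and 5.39-fold lower in IL4R KO + SMP8-IL4R than in WT (-2.43, adjusted p = 0.00067). A second, dimmer probe set gave -3.14 and -3.26 in these comparisons.

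Slco4c1, an organic anion transporter known from the kidney, had values of 10.35 and 10.27 in IL4R KO + SMP8-IL4R, 9.893 and 9.9998 in IL4R KO, and 11.41 and 11.52 in WT. The 3 genotypes did not overlap, with the transgenic pools between the others. It was 2.86-fold lower in IL4R KO than in WT (log2 difference -1.52, SE 0.07, limma adjusted p = 0.00067) and 2.23-fold lower in IL4R KO + SMP8-IL4R than in WT (-1.15, adjusted p = 0.0017). A second probe set gave -1.62 and -1.43. These 3 genes, Slc6a20a, Slc5a1 and Slco4c1, passed against WT in both comparisons under each of the 13 alternative settings. The 13 are not all distinct. Leaving out either pool of the genotype not compared gave the same fit as using the 4 arrays compared alone. Tallies out of 13, here and below, therefore count that fit repeatedly.

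Slc7a8, the light chain of an exchanger of neutral amino acids, had values of 7.52 and 7.18 in IL4R KO + SMP8-IL4R, 7.59 and 7.06 in IL4R KO, and 8.56 and 8.58 in WT. In each knockout genotype pool 1 lay above pool 2, by more than the WT pools differed, and all 4 pools were below WT. It was 2.37-fold lower in IL4R KO than in WT (log2 difference -1.24, SE 0.19, limma adjusted p = 0.026) and 2.32-fold lower in IL4R KO + SMP8-IL4R than in WT (-1.21, adjusted p = 0.036). It passed against WT in 11 of 13 alternatives for IL4R KO and in 9 of 13 for IL4R KO + SMP8-IL4R. Slc3a2, the heavy chain with which Slc7a8 pairs, was at 12.37 and 12.37 in IL4R KO + SMP8-IL4R, 12.57 and 12.41 in IL4R KO, and 12.22 and 12.27 in WT, and its difference of 0.24 between IL4R KO and WT did not pass (adjusted p = 0.13).

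**Figure D1:**
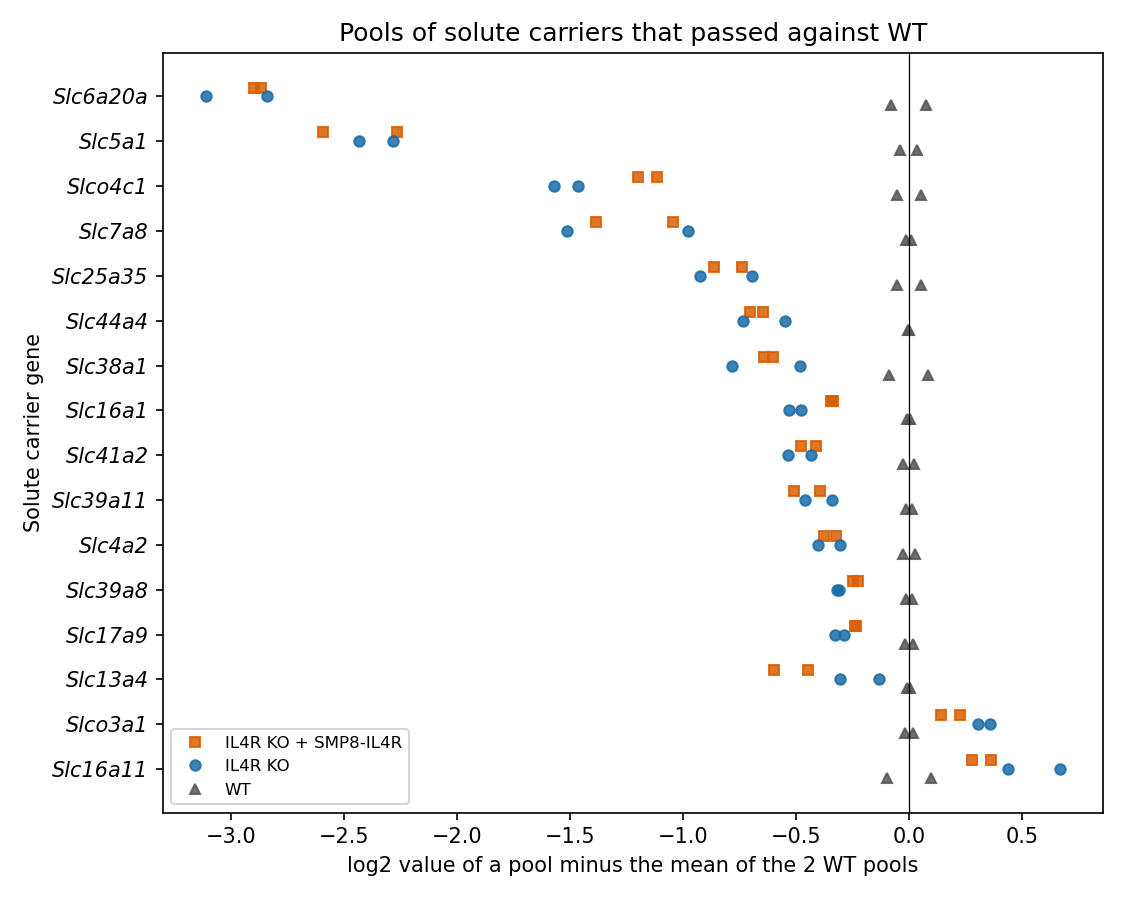
Each point is 1 pool of 4 mice, placed by its log2 value minus the mean of the 2 WT pools (horizontal axis), for the 16 solute carriers that passed against WT in either comparison (vertical axis). Squares are IL4R KO + SMP8-IL4R, circles IL4R KO and triangles WT, and Slc6a20a, Slc5a1, Slco4c1 and Slc7a8 have all 4 knockout pools far left of the WT pools.

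The other solute carriers that passed differed from WT by less than 2-fold. Slc25a35, a mitochondrial carrier, was at 8.73 and 8.60 in IL4R KO + SMP8-IL4R, 8.54 and 8.77 in IL4R KO, and 9.52 and 9.41 in WT. It differed from WT by -0.81 in IL4R KO (limma adjusted p = 0.013) and by -0.80 in IL4R KO + SMP8-IL4R (adjusted p = 0.017). Slc44a4, a choline transporter-like protein of epithelia, was at 8.95 and 9.01 in IL4R KO + SMP8-IL4R, 8.92 and 9.11 in IL4R KO, and 9.65 and 9.66 in WT, with differences from WT of -0.64 in IL4R KO (adjusted p = 0.013) and -0.67 in IL4R KO + SMP8-IL4R (adjusted p = 0.014). In both genes the knockout pools were below the WT pools without overlap.

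Slc38a1, which takes up glutamine and other neutral amino acids with sodium, fell by 0.63 on the log2 scale in IL4R KO (limma adjusted p = 0.042), and its difference of -0.62 in IL4R KO + SMP8-IL4R did not pass (adjusted p = 0.057). Slc16a1, which moves lactate and pyruvate with a proton, was at 10.15 and 10.14 in IL4R KO + SMP8-IL4R, 9.96 and 10.01 in IL4R KO, and 10.50 and 10.48 in WT. The 3 genotypes again did not overlap, and Slc16a1 fell by 0.50 in IL4R KO (adjusted p = 0.011) and by 0.34 in IL4R KO + SMP8-IL4R (adjusted p = 0.044). A second probe set for Slc16a1, with a mean of 4.37 in the lower quartile of all values, gave a difference of 0.039 between IL4R KO and WT. Slc41a2, a magnesium transporter, fell by 0.48 in IL4R KO (adjusted p = 0.019) and by 0.44 in IL4R KO + SMP8-IL4R (adjusted p = 0.033).

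A pair of zinc importers, an anion exchanger and a vesicular carrier made up the rest of the genes that fell in IL4R KO. Slc39a11 fell by 0.40 in IL4R KO (limma adjusted p = 0.044) and by 0.45 in IL4R KO + SMP8-IL4R (adjusted p = 0.039). Slc39a8, which also carries manganese, was at 11.93 and 11.96 in IL4R KO + SMP8-IL4R, 11.86 and 11.87 in IL4R KO, and 12.19 and 12.17 in WT. It fell by 0.31 in IL4R KO (adjusted p = 0.041), and its difference of -0.24 in IL4R KO + SMP8-IL4R did not pass (adjusted p = 0.11). Slc4a2, which exchanges chloride for bicarbonate, fell by 0.35 in IL4R KO (adjusted p = 0.044), and the difference of -0.35 in IL4R KO + SMP8-IL4R did not pass (adjusted p = 0.059). Slc17a9, which loads nucleotides into vesicles, fell by 0.31 in IL4R KO (adjusted p = 0.046), and its difference of -0.24 in IL4R KO + SMP8-IL4R did not pass (adjusted p = 0.11). That these genes passed in one comparison and not the other does not show that the knockout genotypes differ, and the test between them is given further on.

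The 2 solute carriers that rose in IL4R KO did so by little. Slco3a1, an organic anion transporter that accepts prostaglandins, was at 10.67 and 10.72 in IL4R KO and 10.35 and 10.38 in WT, a rise of 0.33 (limma adjusted p = 0.046), and its 3 probe sets gave differences between 0.20 and 0.33. Slc16a11, a relative of the lactate transporters, was at 9.01 and 9.24 in IL4R KO and 8.67 and 8.47 in WT, a rise of 0.55 (adjusted p = 0.047). Slco3a1 passed in 3 of 13 alternatives and Slc16a11 in 5 of 13. Among the genes that fell in IL4R KO, Slc25a35 and Slc44a4 passed in 11 of 13, Slc16a1 in 10, Slc41a2 in 7, Slc38a1 in 6, Slc39a11 and Slc4a2 in 5, and Slc39a8 and Slc17a9 in 4.

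**Figure D2:**
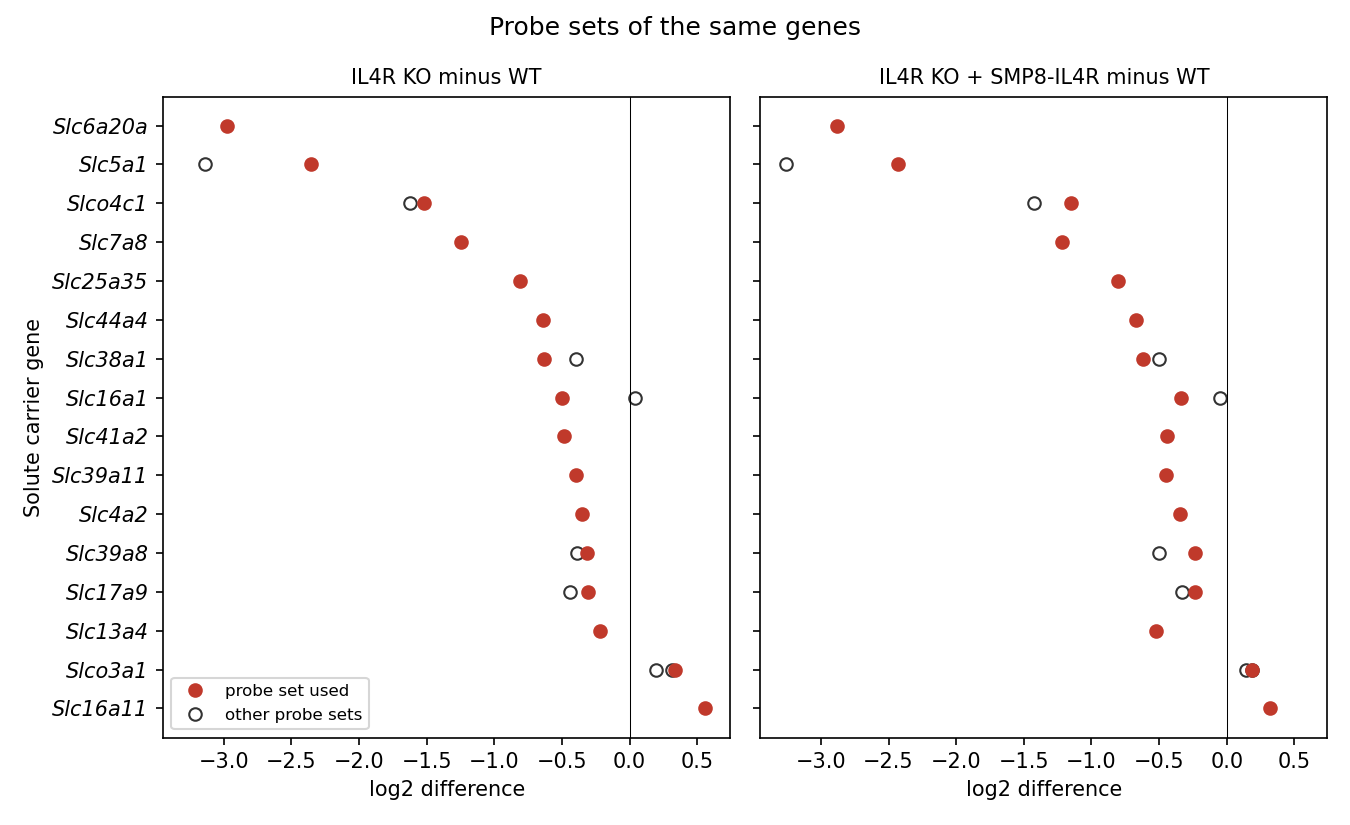
Log2 differences from WT in IL4R KO (left panel) and in IL4R KO + SMP8-IL4R (right panel) for the probe set used of each gene (filled) and its other probe sets (open), with genes on the vertical axis. The open points of Slc5a1 (-3.14 in IL4R KO) and Slco4c1 (-1.62) lie on the same side of 0 as the filled ones, and that of Slc16a1 lies near 0.

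In IL4R KO + SMP8-IL4R against WT, which asked what was still different when only the transgene supplied the receptor, 10 solute carriers fell and 0 rose. That is 4.50% and 0% of the 222, against 2.15% lower and 0.691% higher over all genes tested (limma, adjusted p under 0.05). At an unadjusted p under 0.05, 34 were lower and 19 higher, which is 15.3% and 8.56%, against 7.86% and 10.1% over all genes. With 1 pool of either of these genotypes left out, 3 fell, and without either IL4R KO pool 17 fell. For these fits too the share over all genes is not given. The comparison shares the WT arrays with the one above, so the values of each gene are set side by side here and no agreement is counted. Slc13a4, a sulfate cotransporter, passed in this comparison, with values of 7.80 and 7.95 in IL4R KO + SMP8-IL4R, 8.09 and 8.26 in IL4R KO, and 8.40 and 8.39 in WT. It fell by 0.52 in IL4R KO + SMP8-IL4R (adjusted p = 0.043), and its difference of -0.22 in IL4R KO did not pass (adjusted p = 0.22). The 3 genotypes did not overlap for Slc13a4, and the transgenic pools were the lowest.

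The comparison of IL4R KO + SMP8-IL4R with IL4R KO asked whether the receptor in smooth muscle moved any solute carrier. None of the 222 passed in either direction, against 0.0759% higher and 0.0253% lower over all genes tested (limma, adjusted p under 0.05), and with an intensity trend and a robust prior the count was again 0. At an unadjusted p under 0.05, 6 were higher and 17 lower, which is 2.70% and 7.66%, against 6.94% and 5.45% over all genes. The median difference was -0.019 over the solute carriers and -0.0047 over all genes, and 19 of the 222 lay more than 0.25 from 0. At the same time 2 of 5 smooth muscle markers passed as higher, with Actg2 up by 1.48 (adjusted p = 0.0047) and Acta2 by 0.65 (adjusted p = 0.042). Markers of fat differed too: 2 of 4 adipocyte markers passed as lower. These were Adipoq (difference -1.39, limma adjusted p = 0.042) and Cidec (-0.94, adjusted p = 0.042).

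For the carriers that were far below WT, this difference was small beside the gap to WT. Slc6a20a differed by 0.09 between IL4R KO + SMP8-IL4R and IL4R KO, with a 95% interval from -0.17 to 0.36, while IL4R KO lay 2.98 below WT. Slc5a1 differed by -0.07 (interval -0.37 to 0.22) and Slc7a8 by 0.03 (interval -0.44 to 0.51). Slco4c1 had the lowest p of the family here: it was 1.29-fold higher in IL4R KO + SMP8-IL4R than in IL4R KO (log2 difference 0.36, interval 0.18 to 0.55), with an unadjusted limma p of 0.0030 and an adjusted p of 0.22, and its second probe set differed by 0.20. Slc16a1 differed by 0.16 (interval 0.02 to 0.31, adjusted p = 0.36). The intervals are unadjusted.

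**Figure D3:**
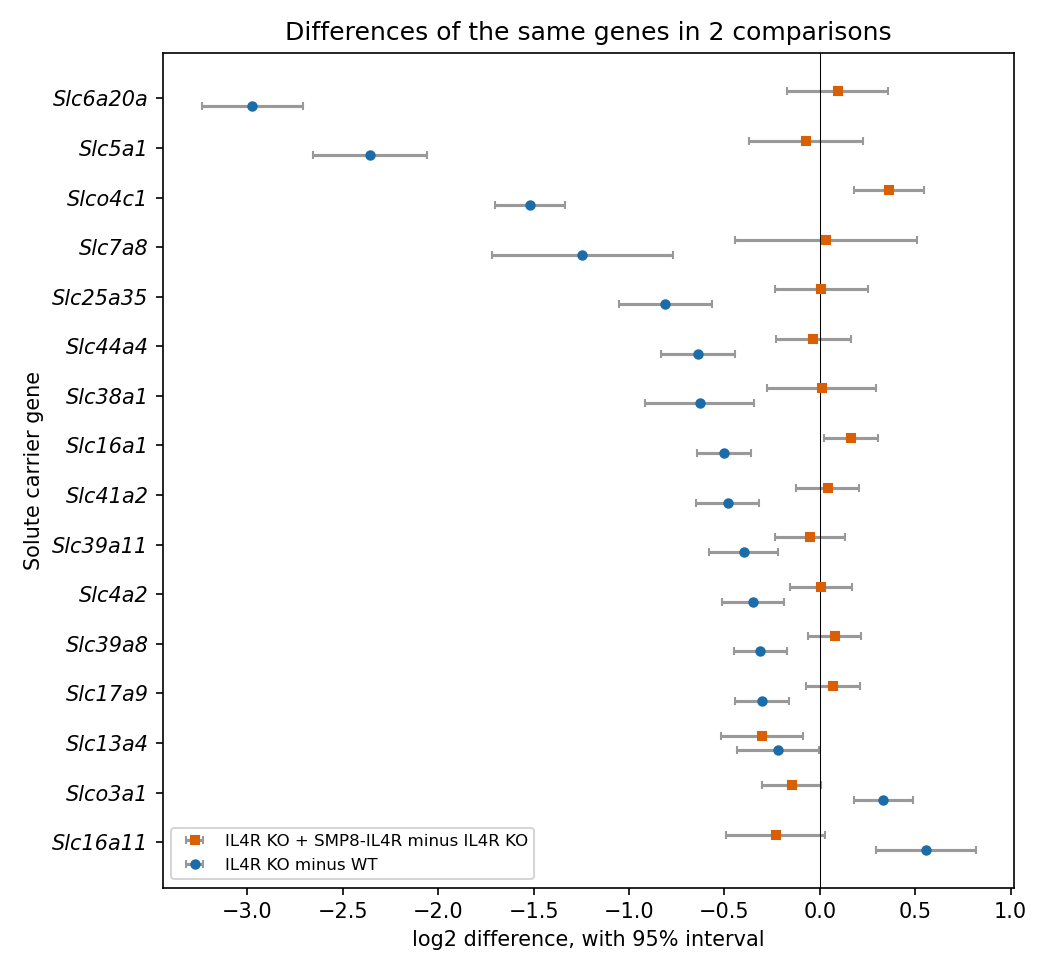
Log2 differences with unadjusted 95% intervals (horizontal axis) for the 16 solute carriers that passed against WT (vertical axis), as IL4R KO + SMP8-IL4R minus IL4R KO (squares) and IL4R KO minus WT (circles). The squares of Slc6a20a, Slc5a1 and Slc7a8 have intervals that hold 0 and lie far from their circles, and that of Slco4c1 runs from 0.18 to 0.55.

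Carriers of zinc, bicarbonate and nucleosides had low unadjusted p in this comparison without passing. Slc39a3, a zinc importer, was at 8.48 and 8.47 in IL4R KO + SMP8-IL4R, 8.73 and 8.81 in IL4R KO, and 8.50 and 8.56 in WT (difference from IL4R KO -0.29, limma adjusted p = 0.24). Slc4a5, a sodium bicarbonate cotransporter, was at 8.52 and 8.70 in IL4R KO + SMP8-IL4R, 8.94 and 8.91 in IL4R KO, and 8.60 and 8.60 in WT (-0.31, adjusted p = 0.27). In both, the IL4R KO pools were the highest with the probe set used. A second, dimmer probe set for Slc39a3 differed by -0.084 and did not share this order. It read 7.76 and 7.78 in IL4R KO + SMP8-IL4R, 7.70 and 8.01 in IL4R KO, and 7.81 and 7.79 in WT. Slc29a1, which moves nucleosides and adenosine down their gradient, was at 9.94 and 9.96 in IL4R KO + SMP8-IL4R, 10.28 and 10.30 in IL4R KO, and 9.91 and 10.12 in WT (-0.34, adjusted p = 0.27).

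A pair of transporters of fat and muscle were, like adipocyte transcripts, highest in IL4R KO. Slc27a1, a fatty acid transport protein of fat and muscle, was at 8.36 and 8.34 in IL4R KO + SMP8-IL4R, 8.61 and 8.85 in IL4R KO, and 8.36 and 8.43 in WT. Slc2a4, the insulin-regulated glucose transporter of fat and muscle, was at 8.18 and 8.34 in IL4R KO + SMP8-IL4R, 8.44 and 8.50 in IL4R KO, and 8.17 and 7.99 in WT. For both genes the IL4R KO pools were above all other pools, and with the probe set used neither passed, with a difference between IL4R KO and WT of 0.33 for Slc27a1 (limma adjusted p = 0.11) and 0.39 for Slc2a4 (adjusted p = 0.082). With the median of a gene's probe sets both passed as higher in IL4R KO, by 0.37 for Slc27a1 (adjusted p = 0.041) and 0.49 for Slc2a4 (adjusted p = 0.018). Slc27a1 also passed without IL4R KO pool 1 (0.45, adjusted p = 0.019) and without both liver arrays (0.49, adjusted p = 0.049). The summed level of 4 adipocyte markers (log2) was 9.95 and 10.01 in IL4R KO + SMP8-IL4R, 10.99 and 11.23 in IL4R KO, and 9.44 and 9.65 in WT, and 4 of 4 of these markers rose in IL4R KO. Of 6 cardiac muscle markers, 4 also rose in IL4R KO. The part of these cells in the values of Slc27a1 and Slc2a4 was not tested. Slc36a2, an amino acid transporter also expressed in brown fat, did not share this, with 9.75 and 9.80 in IL4R KO + SMP8-IL4R, 9.68 and 9.88 in IL4R KO, and 10.16 and 10.13 in WT.

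Markers of goblet cells, and some of those of macrophages, moved with the carriers that fell. The summed level of 5 goblet markers (log2) was 10.75 and 10.76 in IL4R KO + SMP8-IL4R, 10.91 and 10.76 in IL4R KO, and 14.96 and 14.94 in WT, and 5 of 5 fell in each knockout genotype. Of these, Clca1 was at 3.91 and 4.80 in IL4R KO + SMP8-IL4R, 4.57 and 5.27 in IL4R KO, and 14.3 and 14.3 in WT. The summed level of 6 macrophage markers was 13.31 and 12.90 in IL4R KO + SMP8-IL4R, 12.97 and 12.97 in IL4R KO, and 14.71 and 14.77 in WT, and 3 of 5 tested fell in each knockout genotype. These were Mrc1, Itgax and Chil3, and Chil3 was the highest of the list, at 14.23 and 14.26 in WT. Adgre1 and Cd68 did not pass. Marco, which was not kept, went the other way, with 6.97 and 6.88 in IL4R KO + SMP8-IL4R, 6.42 and 6.40 in IL4R KO, and 5.84 and 5.99 in WT. How much of the difference in Slc6a20a, Slc5a1, Slco4c1, Slc7a8 or Slc44a4 goes with the number of such cells was not tested. Of 5 smooth muscle markers, 4 were lower in IL4R KO than in WT and 0 in IL4R KO + SMP8-IL4R.

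By substrate, the fallen genes were spread over many classes. Class medians lay between -0.12 and 0.12 in the 3 comparisons. Both ends were in vitamins, nucleosides and ascorbate, at 0.12 in IL4R KO against WT and -0.12 in IL4R KO + SMP8-IL4R against IL4R KO. Among 35 tested carriers of amino acids and peptides, 3 fell in IL4R KO and 2 in IL4R KO + SMP8-IL4R, and the medians were -0.025 and -0.042. Slc1a5, which brings in glutamine, was at 10.50 and 10.46 in IL4R KO + SMP8-IL4R, 10.57 and 10.48 in IL4R KO, and 10.31 and 10.33 in WT (IL4R KO minus WT 0.21, limma adjusted p = 0.13). Slc7a5, the other light chain of large neutral amino acid exchange, ran from 7.59 to 8.02 over the 6 arrays with overlapping genotypes. Slc6a14, an amino acid transporter of airway epithelium, ran from 9.81 to 10.05, and Slc15a2 from 10.24 to 10.72. For Slc15a2 the IL4R KO pools were the highest with the probe set used, and the difference of 0.37 from WT did not pass (adjusted p = 0.092). Its dimmer probe sets had another order. One read 8.38 and 8.50 in IL4R KO + SMP8-IL4R, 8.08 and 8.54 in IL4R KO, and 7.66 and 7.80 in WT. In the dimmest the transgenic pools were the highest, at 7.99 and 8.21, against 6.56 and 7.72 in IL4R KO and 6.51 and 6.77 in WT. Slc7a11, the cystine and glutamate exchanger, was not kept, with values between 5.003 and 5.55.

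Among 17 tested sugar carriers, Slc5a1 alone passed, and the medians were -0.022 in IL4R KO and -0.037 in IL4R KO + SMP8-IL4R. Slc2a1, the basal glucose transporter, was at 9.04 and 8.97 in IL4R KO + SMP8-IL4R, 9.30 and 9.29 in IL4R KO, and 9.57 and 9.32 in WT, without overlap between genotypes. Its difference of -0.44 between IL4R KO + SMP8-IL4R and WT did not pass (limma adjusted p = 0.080). In a dimmer probe set for Slc2a1, IL4R KO (8.945 and 8.867) and WT (9.069 and 8.940) overlapped. Slc2a3, a high-affinity glucose transporter, was at 10.30 and 9.50 in IL4R KO + SMP8-IL4R, 9.91 and 9.62 in IL4R KO, and 10.05 and 10.04 in WT. Its pools within IL4R KO + SMP8-IL4R differed by more than the genotypes did. The summed neutrophil markers were 14.48 and 11.71 in pools 1 and 2 of IL4R KO + SMP8-IL4R, 13.54 and 12.14 in IL4R KO, and 11.49 and 12.02 in WT. Slc11a1, a metal transporter of phagocyte vesicles, was likewise highest in transgenic pool 1, at 8.80, against 8.20 to 8.41 in the other 5 arrays.

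Among 38 tested mitochondrial carriers, 1 fell in each knockout genotype, Slc25a35, and the medians were 0.033 in IL4R KO and 0.012 in IL4R KO + SMP8-IL4R. Slc25a3, which brings phosphate into the mitochondrion, ran from 12.94 to 13.03, Slc25a39 from 13.04 to 13.13, and Slc25a4, an ADP/ATP carrier of heart and muscle, from 12.16 to 12.26. Slc25a5, another ADP/ATP carrier, was at 12.61 and 12.47 in IL4R KO + SMP8-IL4R, 12.50 and 12.57 in IL4R KO, and 12.72 and 12.82 in WT (IL4R KO minus WT -0.24, limma adjusted p = 0.15). The WT pools of Slc25a5 were above the rest. It was read by a probe set of the x_at type, which can also bind related transcripts, and 18 of the 222 were read by such a set or one of the s_at type. Over the 8 probe sets of Slc25a5, IL4R KO minus WT lay between -0.54 and -0.24. The lowest came from a dimmer set that is not of the x_at type.

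Among 25 tested carriers of trace metals and heme, 2 fell in IL4R KO and 1 in IL4R KO + SMP8-IL4R, and the medians were -0.024 and -0.019. Slc40a1, which exports iron, was at 8.83 and 8.77 in IL4R KO + SMP8-IL4R, 8.58 and 8.67 in IL4R KO, and 8.20 and 8.48 in WT, so the genotypes did not overlap. Its difference of 0.46 between IL4R KO + SMP8-IL4R and WT did not pass (limma adjusted p = 0.096). Among 14 other genes that handle iron and metals, the secreted iron-binding protein Ltf rose by 1.07 in IL4R KO (adjusted p = 0.011). In the same list the ferrireductase Steap4 fell by 0.84 (adjusted p = 0.018) and the transferrin receptor Tfrc fell by 0.49 (adjusted p = 0.026) in IL4R KO. In IL4R KO + SMP8-IL4R against WT, Steap4 passed in this list, with a difference of -0.70.

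Among 15 tested carriers of inorganic anions, 1 fell in IL4R KO, Slc4a2, and 1 in IL4R KO + SMP8-IL4R, Slc13a4, with medians of -0.011 and -0.050. Slc4a1, the anion exchanger of red cells, was at 9.14 and 8.53 in IL4R KO + SMP8-IL4R, 8.67 and 8.15 in IL4R KO, and 7.72 and 8.18 in WT. Its difference of 0.89 between IL4R KO + SMP8-IL4R and WT did not pass (limma adjusted p = 0.18), and the summed red cell markers were 11.67 and 11.63 in IL4R KO + SMP8-IL4R, 11.68 and 11.86 in IL4R KO, and 11.02 and 11.33 in WT. Among 19 tested carriers of organic ions, bile acids and prostaglandins, 2 fell and 1 rose in IL4R KO, and 1 fell in IL4R KO + SMP8-IL4R. Slco2a1 was at 12.60 and 12.51 in IL4R KO + SMP8-IL4R, 12.59 and 12.50 in IL4R KO, and 12.38 and 12.42 in WT (IL4R KO minus WT 0.15, adjusted p = 0.27).

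Among 12 tested carriers of monocarboxylates and fatty acids, 1 fell and 1 rose in IL4R KO, and 1 fell in IL4R KO + SMP8-IL4R. Among 12 tested carriers of amines, choline and osmolytes, Slc44a4 alone passed. Slc6a4, the serotonin transporter, found in lung mainly in endothelium, was at 7.71 and 7.47 in IL4R KO + SMP8-IL4R, 7.59 and 7.69 in IL4R KO, and 7.24 and 7.25 in WT. Both knockout genotypes were above WT for Slc6a4, and neither difference passed (0.39 in IL4R KO, limma adjusted p = 0.083, and 0.34 in IL4R KO + SMP8-IL4R, adjusted p = 0.15). Slc44a2 was at 12.60 and 12.57 in IL4R KO + SMP8-IL4R, 12.47 and 12.69 in IL4R KO, and 12.40 and 12.39 in WT. Among 13 tested carriers of sodium, potassium, calcium, magnesium and protons, Slc41a2 alone passed. Slc8a1, the sodium-calcium exchanger abundant in heart, was not kept, with values between 6.29 and 6.97.

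In 3 classes 0 genes passed in any comparison with the probe sets and arrays described above. These were the 21 tested carriers of nucleotide sugars and acetyl-CoA, which feed the Golgi with building blocks for glycans, the 11 of vitamins, nucleosides and ascorbate, and 4 genes that bear a solute carrier symbol without being transporters. Slc35a3, which carries UDP-N-acetylglucosamine, was at 10.01 and 9.98 in IL4R KO + SMP8-IL4R, 9.88 and 9.78 in IL4R KO, and 10.08 and 10.12 in WT. Its genotypes did not overlap with the probe set used, and the difference of -0.27 between IL4R KO and WT did not pass (limma adjusted p = 0.082). In each of its other probe sets the IL4R KO + SMP8-IL4R and IL4R KO pools overlapped. Over all its probe sets IL4R KO minus WT lay between -0.30 and -0.18. Slc19a3, a thiamine transporter, was at 7.76 and 7.83 in IL4R KO + SMP8-IL4R, 8.03 and 7.88 in IL4R KO, and 7.29 and 7.63 in WT (IL4R KO minus WT 0.49, adjusted p = 0.090). Slc19a3 passed with the median of its probe sets (0.55, adjusted p = 0.015) and without both liver arrays (0.58, adjusted p = 0.043), and its second probe set gave 0.61. The ascorbate transporters Slc23a1 and Slc23a2 ran from 7.55 to 7.73 and from 11.11 to 11.31, and Slc9a3r1 and Slc9a3r2, which anchor a sodium-proton exchanger, from 10.73 to 10.91 and from 12.04 to 12.15.

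**Figure D4:**
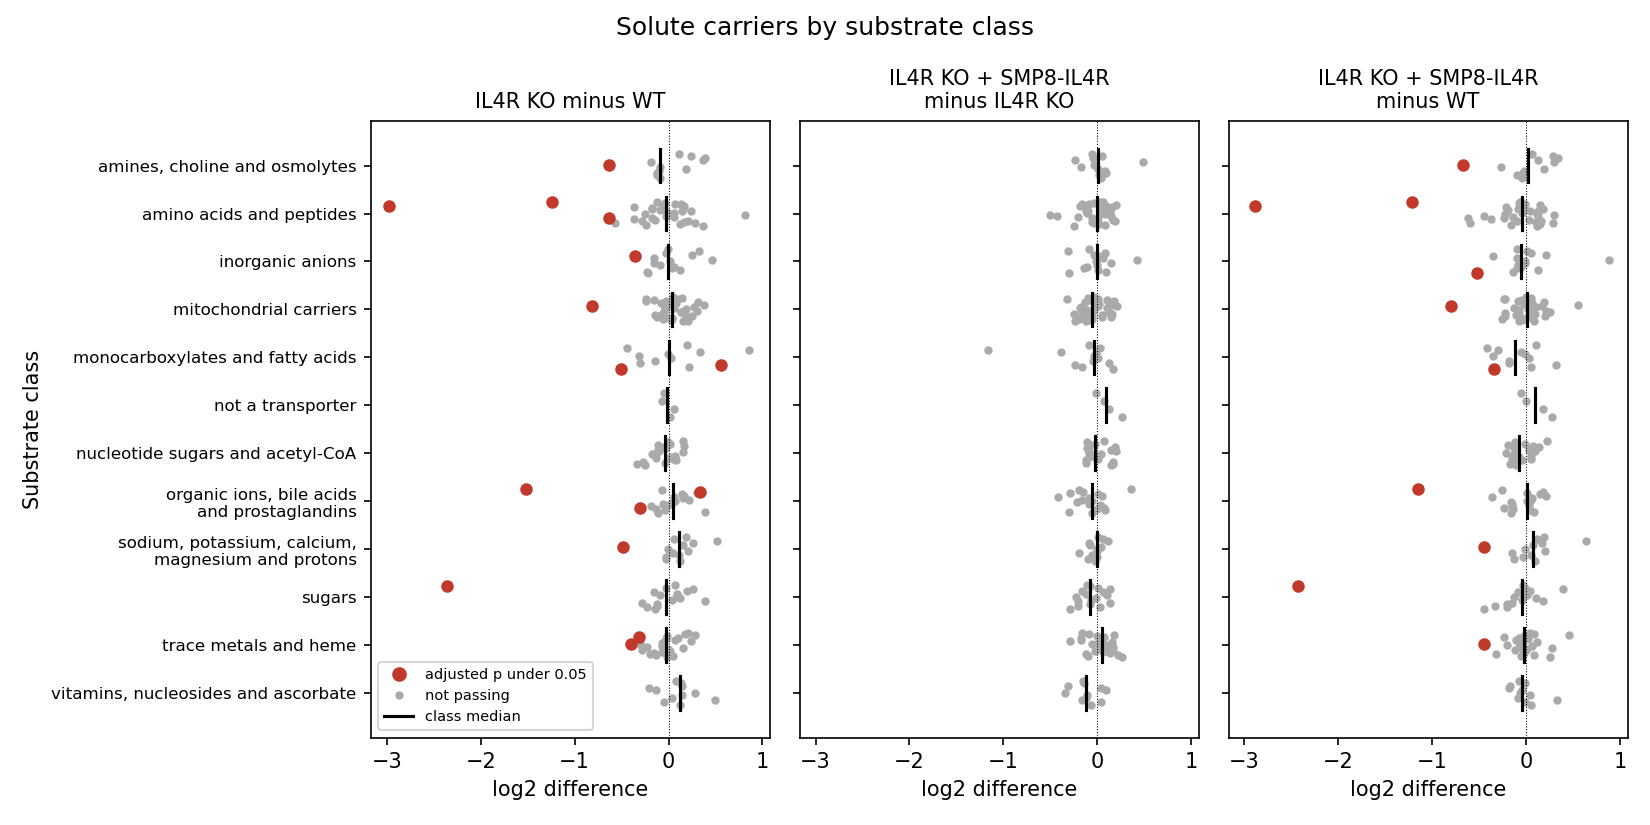
Log2 differences (horizontal axis) of the 222 solute carriers by substrate class (vertical axis) in the 3 comparisons, 1 panel each, with genes that passed in red, others in grey and the class median as a black bar. Medians lie between -0.12 and 0.12 in every class, the red points are mostly left of 0 in both panels against WT, and the panel of IL4R KO + SMP8-IL4R minus IL4R KO has none.

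Transporters of other families were described for comparison, from lists of gene families. Of 32 tested ATP-binding cassette transporters, 2 rose and 1 fell in IL4R KO against WT. The risers were Abcc3, an exporter of organic anions, by 0.56 (limma adjusted p = 0.030), and Abcc9, a subunit of potassium channels, by 0.36 (adjusted p = 0.042). Abcd2, a peroxisomal carrier of fatty acids, fell by 0.93 (adjusted p = 0.033). In IL4R KO + SMP8-IL4R against WT, Abcc9 rose by 0.39. Of 10 tested genes of sodium and calcium pumps, the calcium pump Atp2b2 alone passed. It fell by 0.82 in IL4R KO (adjusted p = 0.011) and by 0.93 in IL4R KO + SMP8-IL4R. The sodium pump was represented there by its beta chains alone, Atp1b1, Atp1b2 and Atp1b3, and no proton pump was among the 10. Of 13 genes of the amino acid response, 0 passed in any comparison, and in IL4R KO + SMP8-IL4R against IL4R KO 0 genes of any of these lists passed.

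Within IL4R KO and within WT, some carriers differed between pools as liver transcripts did, and these genes were picked after their values were seen. Slc27a2, a fatty acid transport protein of liver and kidney, was at 6.45 and 6.64 in IL4R KO + SMP8-IL4R, 8.50 and 6.91 in IL4R KO, and 5.92 and 7.77 in WT. Slc38a4, an amino acid transporter of liver, was at 7.99 and 7.98 in IL4R KO + SMP8-IL4R, 8.84 and 8.15 in IL4R KO, and 7.32 and 8.04 in WT. In both genes IL4R KO pool 1 and WT pool 2 stood above the other pool of their genotype, but for Slc38a4 WT pool 2 was below IL4R KO pool 2 and close to the transgenic pools. Slc38a3 (7.87 and 7.69 in IL4R KO pool 1 and WT pool 2, against 6.78 to 7.07 elsewhere), Slco1a1 (7.42 and 7.18, against 6.60 to 6.84) and Slc25a47 (7.86 and 7.54, against 7.09 to 7.23) also stood high in those arrays. Slc27a2, Slc38a3 and Slco1a1 were above the median in those 2 arrays alone and were kept because of them, so their standing high there was fixed by the choice of genes. The bile acid importer Slc10a1, which was not kept, was at 6.90 and 6.36 in those arrays and between 4.62 and 4.85 in the others. The summed hepatocyte markers were at 13.8 and 13.4 in the same arrays and between 8.79 and 8.98 in the others. With all 6 arrays, 0 of these 5 kept genes passed in any comparison. Without both liver arrays Slc27a2 passed as higher in IL4R KO than in WT (difference 0.99, limma adjusted p = 0.029). Slc38a4 then passed as higher in IL4R KO (0.83, adjusted p = 0.017) and in IL4R KO + SMP8-IL4R (0.66, adjusted p = 0.023), both against WT. These fits have 1 pool left in IL4R KO and in WT, and rest on the spread between the transgenic pools.

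**Figure D5:**
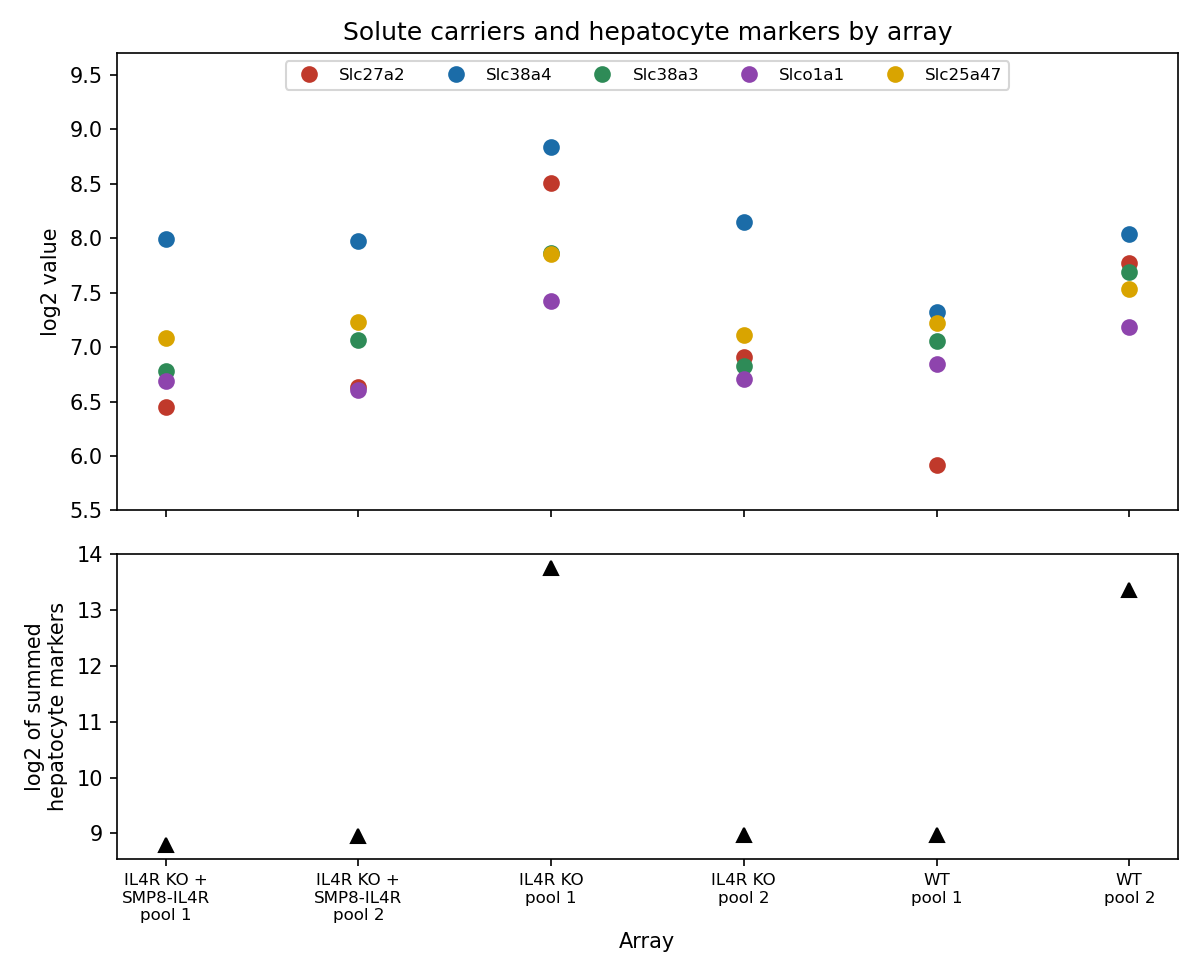
Log2 values of 5 solute carriers (upper panel) and the log2 of the summed hepatocyte markers (lower panel) in each of the 6 arrays (horizontal axis, 2 pools per genotype). In the upper panel IL4R KO pool 1 stands above the other pool of its genotype, as does WT pool 2, and the same arrays reach 13.8 and 13.4 in the lower panel.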

How the data were processed

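Whole-lung RNA pools were measured on 6 Affymetrix mouse arrays. The log2 values deposited by the authors were made with RMA (background correction, quantile normalization and probe set summary), per the submitters' processing notes, with the version not given in the sources used here. They ran from 2.63 to 14.8, with quartiles of 5.30 and 8.98. No detection calls were used, RMA compresses dim signals, and the number of arrays limits the precision. Of 45101 probe sets, 64 were array controls, 34945 had 1 gene in the platform annotation, 932 several and 9160 none. By Entrez identifier 34741 matched the reference table (GRCm38.p6, names alone).

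Genotypes came from the sample labels, and each group had 2 pools, so p-values measure the spread between pools. Genotypes were compared over 11860 genes by limma (version 3.58.1, R 4.3.3), with 1 mean per group, a shared spread from 3 residual and 2.86 prior degrees of freedom, and Benjamini-Hochberg adjustment. Adjusted p-values come from this fit, except where an alternative is named beside them, and those come from the limma fit of that alternative. Genes named were those that passed, the lowest p of each substrate class, the 10 highest means, a fixed list of lung and other carriers, and a few chosen after their values were seen, as said there. The genes, lists and substrate classes were chosen with earlier results of these data known, and the class of Slc6a20a was corrected after its values were seen. A marker list's summed level is the log2 of the summed linear values. Same-numbered pools were checked for pairing: their deviations correlated at 0.121 between IL4R KO + SMP8-IL4R and IL4R KO, at -0.0875 between IL4R KO + SMP8-IL4R and WT, and at -0.509 between IL4R KO and WT, so the numbers do not pair the pools. Alternatives changed the filter on dim genes, the choice of probe set, the variance model, the arrays fitted and a replicate block.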

Additional observations from a re-analysis of the deposited data

How the results depend on the processing

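Of the solute carriers that passed, 0 changed direction under any of the 13 alternatives, and Slc6a20a, Slc5a1 and Slco4c1 passed in both comparisons against WT under each of them. In IL4R KO against WT, where 13 fell and 2 rose, no filter on dim genes gave 8 lower and 0 higher, the median of a gene's probe sets gave 4 higher, a fit on the 4 arrays compared gave 7 lower and 0 higher, and leaving out both arrays with liver transcripts gave 8 lower and 6 higher. In IL4R KO + SMP8-IL4R against WT, where 10 fell and 0 rose, an intensity trend with a robust prior gave 2 higher, the 4 arrays compared gave 17 lower and 4 higher, and leaving out both liver arrays gave 2 higher. With the replicate number as a block, 8 were lower and 0 higher in IL4R KO against WT, and 7 were lower in IL4R KO + SMP8-IL4R against WT. A block with the WT numbers crossed, chosen after seeing the data and not among the 13, gave 1 higher in IL4R KO + SMP8-IL4R against WT, Slc4a1. In IL4R KO against WT that block gave Slc16a11 and Slc4a1 as higher. Leaving out 1 pool at a time gave 3 to 21 lower and 0 to 11 higher in IL4R KO against WT, 3 to 17 lower and 0 to 4 higher in IL4R KO + SMP8-IL4R against WT, and 0 to 1 lower and 0 to 0 higher in IL4R KO + SMP8-IL4R against IL4R KO. In IL4R KO against WT, omitting IL4R KO pool 1 gave 19 lower and 11 higher and omitting its pool 2 gave 21 and 6, with 7 and 0 without either transgenic pool, and 3 and 0 without either WT pool. In IL4R KO + SMP8-IL4R against WT, 17 were lower without either IL4R KO pool and 3 without either pool of the other genotypes. The 1 lower in IL4R KO + SMP8-IL4R against IL4R KO was Slc6a2, the noradrenaline transporter, without IL4R KO pool 2 (difference -0.66, limma adjusted p = 0.040). This gene was named after its values were seen. Other carriers given above as not passing did pass under at least 1 of the 13 alternatives. In IL4R KO + SMP8-IL4R against WT these were Slc36a2, Slc38a1, Slc4a2, Slc39a8, Slc2a1 and Slc40a1. In IL4R KO against WT they were Slc36a2, Slc39a3, Slc35a3, Slc3a2 and Slc44a2. Slc4a1 passed against WT under the block with the WT numbers crossed alone. The lone pool left is assumed to vary like the others, and the cause of these changes was not tested. Leaving out a pool of the genotype not compared repeats the fit on the 4 arrays compared, so these are not separate results. Shares over all genes are not given for the alternatives, so their counts do not set the solute carriers apart from other genes. The number of pools, 2 per genotype, limits the precision, and fold changes of dim genes are compressed by RMA.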
